A study of Mus musculus with 105 samples.

Results

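The cells described are the single cells collected on day 4, the last day of a differentiation time course of female mouse embryonic stem cells (mESCs) of the line TX1072. They were taken as the day-4 capture sites that held at least 40000 UMIs (unique molecular identifiers, each tagging 1 captured mRNA molecule) outside the ERCC spike-in sequences. This rule gave 315 cells of 400 sites, out of 1667 cells over days 0 to 4, and 272 of the 315 are also among the cells that the study kept after removing low-quality cells, sites seen under the microscope to hold several cells, and cells without a second X chromosome. The sites nearest to the limit held 40174, 43174 and 45816 UMIs on the inside and 39198, 38469 and 37962 on the outside. The line is clone A3 of an F1 hybrid between C57BL6/J (B6) and Cast/EiJ (Cast), with a doxycycline-responsive promoter in front of Xist on the B6 chromosome and rtTA in the Rosa26 locus, and all groups used here share these alleles. Day-0 cells were kept in serum with LIF and 2i, the inhibitor pair that holds mESCs in naive pluripotency, and cells of days 1 to 4 had LIF and 2i withdrawn in DMEM with 10% serum on fibronectin. Each day was 1 culture, loaded into 1 compartment of a C1-HT chip whose other compartment held another cell type that the study did not analyze. The cells of a day came from 10 capture columns of 40 sites, read at the 3′ end, so that columns and cells were not replicates and were not tested. Bulk RNA of TX1072 was sequenced from 3 cultures per day, of which replicate 1 was the population that was also loaded on the chips. The 40 row indices were used in all 10 columns, and doublets were not called, so that some of the other 43 sites may hold several cells.

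The lowest day-4 cell had 40174 UMIs, the median cell 164640 and the highest 300322, and the median number of detected genes was 6390. Summed over cells, a capture column held between 4111970 and 5446429 UMIs from 27 to 35 cells. The 302 cells of day 3, passing the same limit, had a lower median of 123490 UMIs, so that cells were thinned at random to 40000 UMIs wherever single cells were compared. Bulk libraries held between 19827011 and 39628784 counts. In the bulk libraries, and in counts summed over cells, fewer cells of a type and less RNA per cell cannot be told apart.

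When naive mESCs lose 2i and LIF they shut down the naive network, pass through a formative state resembling the early post-implantation epiblast, and can then enter primitive streak, endoderm, neural or other fates. Serum holds activators of RhoA and of serum response factor (SRF), the transcription factor that drives actin and contractile genes together with its actin-sensing cofactors, so that Tagln and Acta2 are common in flat cells on a stiff substrate and are not limited to smooth muscle. Carbonic anhydrases, the family of Car4, interconvert carbon dioxide and bicarbonate.

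The 3 genes that mark these cells were higher in the summed cells of day 4 than in those of day 3, Acta2 by the largest ratio (9.94) and Car4 by the smallest (1.58). Tagln (transgelin, an actin-binding protein) was at 0.309 CPM (counts scaled to a common library total) in the summed cells of day 0, at 311 at day 3 and at 617 at day 4. Acta2 (smooth muscle actin) was at 14.5 CPM at day 3 and at 144 at day 4, and Car4, a membrane-bound carbonic anhydrase, was at 308 and 486 CPM. Over the 10 capture columns of day 4, Tagln lay between 436 and 888 CPM with a median of 650, Acta2 between 56.9 and 194 with a median of 144, and Car4 between 430 and 580 with a median of 496. For each of the 3 genes, all 10 columns lay above the day-3 sum, although the Tagln columns of day 3 reached 583 CPM and overlapped with those of day 4.

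In bulk libraries Tagln was at 192, 143 and 160 CPM at day 3 and at 402, 414 and 443 at day 4, and the groups did not overlap. Its log2 fold change was 1.35 ± 0.16 (SE, n = 3 per day, edgeR quasi-likelihood test, adjusted p = 8.4e-06). Acta2 was at 9.50, 5.05 and 6.51 CPM in the bulk libraries of day 3 and at 120.4, 83.0 and 123.1 at day 4. Its log2 fold change was 3.94 ± 0.25 (SE, edgeR adjusted p = 1.1e-08). Car4 was at 172, 235 and 165 CPM at day 3 and at 227, 269 and 230 at day 4, with 1 day-3 library above the lowest day-4 library. Its log2 fold change of 0.34 ± 0.14 (SE) did not pass the threshold in edgeR (adjusted p = 0.084) and passed it with the replicate as a block, at 0.35, or without replicate 2, at 0.44. Relative to day 0, the 3 markers rose in bulk RNA (edgeR). The genes lie at chr9:45929619-45936058 on the minus strand (Tagln), chr19:34241090-34255590 on the minus strand (Acta2) and chr11:84957786-84966044 on the plus strand (Car4) of GRCm38.

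**Figure D1:**
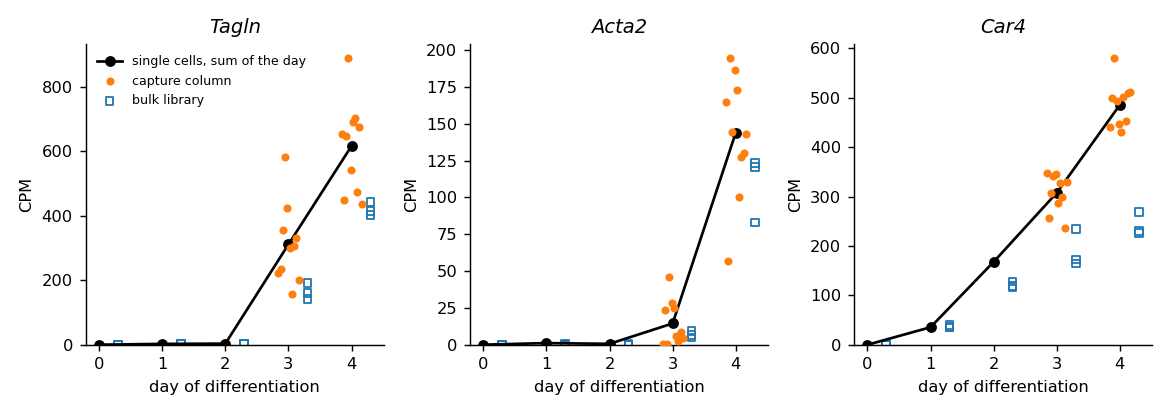
Level of Tagln, Acta2 and Car4 in CPM (y axis) by day of differentiation (x axis): black points and line, counts summed over the single cells of a day; orange, the 10 capture columns of days 3 and 4; open squares, the 3 bulk libraries of each day. All 10 day-4 columns lie above the day-3 sum for each gene, and Acta2 goes from 14.5 to 144 CPM in the summed cells.

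CArG boxes, the sequence that SRF binds, were looked for in the promoters of the contractile and actin genes. Of these 10 of 15 and 11 of 20 tested rose in bulk RNA, against 16.0% of all genes tested. Promoters of 250 bases before to 50 after the start were taken from RefSeq (GRCm38.p6), which held 29 of the 36 genes of the 2 lists, and Tagln and Actb were not among them. A CArG box was found in 9 of these 29 genes, and in 488 of all 27025 genes of the table (1.81%). The actin list was partly made up of known SRF targets, so the count is a description of the list. The box is its own reverse complement, so that a match holds for both strands. Shown are the bases before the start of 3 muscle actin genes and of Vcl (vinculin, which links actin to adhesions), with the box in capitals.
Acta2, chr19:34255374-34255623, minus strand: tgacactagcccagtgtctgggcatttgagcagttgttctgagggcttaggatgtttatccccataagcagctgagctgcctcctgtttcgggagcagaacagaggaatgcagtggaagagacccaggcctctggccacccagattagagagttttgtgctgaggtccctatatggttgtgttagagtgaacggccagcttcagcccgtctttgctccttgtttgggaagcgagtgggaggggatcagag
Acta1, chr8:123894776-123895025, minus strand: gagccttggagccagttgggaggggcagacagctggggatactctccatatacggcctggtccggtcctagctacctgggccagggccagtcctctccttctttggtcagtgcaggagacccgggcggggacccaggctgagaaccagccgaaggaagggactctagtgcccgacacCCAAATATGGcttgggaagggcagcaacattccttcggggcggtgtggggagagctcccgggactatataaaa
Actc1, chr2:114052876-114053125, minus strand: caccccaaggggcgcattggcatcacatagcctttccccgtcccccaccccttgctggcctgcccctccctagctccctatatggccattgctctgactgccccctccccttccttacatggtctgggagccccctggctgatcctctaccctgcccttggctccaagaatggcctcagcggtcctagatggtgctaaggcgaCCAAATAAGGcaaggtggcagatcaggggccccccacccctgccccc
Vcl, chr14:20929148-20929397, plus strand: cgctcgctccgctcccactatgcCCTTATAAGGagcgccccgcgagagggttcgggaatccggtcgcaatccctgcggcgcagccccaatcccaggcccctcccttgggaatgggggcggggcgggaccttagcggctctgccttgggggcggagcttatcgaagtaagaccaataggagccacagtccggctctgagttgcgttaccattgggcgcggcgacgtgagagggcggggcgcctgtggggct
Acta2 held no exact box in this window, Acta1 held 1 that started at position -73 relative to the start, Actc1 1 at -47 and Vcl 1 at -227. Only exact boxes were looked for, and sequences that differ from a box by 1 base were left in lower case. Among these are ccctatatgg and ccttgtttgg in the Acta2 window and ccctatatgg in that of Actc1. Binding of SRF was not tested, and Acta2 is not shown to lack SRF sites. A match is a description of the letters only.

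Genes of the contractile list mostly rose between days 3 and 4, among them Tagln, Acta2 and Cnn1 of smooth muscle, while Myh11, Mylk, Des and Actg2 were low. Of its 15 members tested in bulk RNA, 10 rose and the other 5 did not pass the test (edgeR adjusted p of 0.05), where 16.0% of all 18871 genes tested rose and 11.9% fell, and the members' median log2 fold change was 0.62 against 0.0031 for all genes. In the single cells, where the rule was a ratio of summed CPM of 2 or more among genes with at least 200 UMIs in either day, 3 of 12 members were 2-fold higher (Acta2 among them) and the others were within 2-fold, against 9.68% and 3.32% of all 11281 genes. Tpm1 (tropomyosin, which stabilizes actin filaments) was at 1001 CPM in the day-3 cells and at 1666 CPM in the day-4 cells, and rose by a log2 of 0.91 ± 0.10 (SE) in bulk RNA. Cnn2 (a calponin) and Tagln2, the transgelin of non-muscle cells, were at 385 and 561 CPM at day 4 and rose by log2 fold changes of 1.07 and 1.21 in bulk RNA. Cald1 (caldesmon) rose by 0.62, a call that was lost without replicate 3 (0.39), and Cnn1, the calponin of smooth muscle, by 0.40, a call that was lost without replicate 1 (0.48) or replicate 3 (0.31). The list's count was 8 of 16 genes without replicate 1 and 7 of 15 without replicate 3. Myl9, a myosin light chain, was at 79.97 CPM in the cells and did not pass the test. Cnn1 was at 73.0 CPM in the day-4 cells. Myh11, the smooth muscle myosin heavy chain, was at 0.671 CPM in these cells, Mylk (the kinase of the myosin light chain) at 0.0197, Des (desmin) at 1.44 and Actg2 at 0. These 4 genes were chosen after their values were seen. In the bulk libraries of day 4 Myh11 was at 0.376, 0.826 and 0.540 CPM, Mylk at 0.649, 0.191 and 0.330, Des at 7.82, 6.83 and 5.46, and Actg2 at 0.171, 0.318 and 0.450.

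Among the 20 actin cytoskeleton genes and SRF targets, 11 rose in bulk RNA and 9 did not pass the test. Over all genes tested 16.0% rose and 11.9% fell, and the members' median log2 fold change was 0.60. With the replicate block 13 members rose and 2 fell, and 7 rose without replicate 3. In the single cells 3 of 19 members were 2-fold higher and 1 was 2-fold lower, against 9.68% and 3.32% of all genes. Acta1, the actin of skeletal muscle, was at 2.76, 1.41 and 1.55 CPM in the bulk libraries of day 3 and at 16.4, 11.7 and 13.8 at day 4, a log2 fold change of 2.85 ± 0.28 (SE). It was at 46.8 CPM in the day-4 cells, with columns between 5.65 and 117. Flna (filamin A) rose by 1.04, Myh9, the non-muscle myosin, by 0.78, Tpm4, a tropomyosin, by 0.72, Pdlim7 by 0.64 and Vcl by 0.50, and without replicate 3 the calls of Pdlim7 (0.56) and Vcl (0.38) were lost. Srf itself, Cyr61, Ctgf and Ankrd1 did not pass the test, with log2 fold changes of -0.33, -0.34, -0.49 and -0.16, and the 2 that fell with the replicate block were Cyr61 and Ctgf. Actb was at 2702 CPM in the cells, with a log2 fold change of 0.32 that did not pass the test (edgeR adjusted p = 0.066) and passed it with the replicate block, at 0.31. Actg1 was at 1.92 CPM in the cells but at 744, 901 and 842 in the bulk libraries. Actin genes share much of their coding sequence, so that values of single actin genes are uncertain, and the part of this in the gap of Actg1 was not tested.

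Of the epithelial list 9 of 15 genes rose by day 4, and the mesenchymal list was made up mainly of a few abundant genes. These 9 rose in bulk RNA, against 16.0% of all genes tested. Of the list 8 rose without replicate 1, 10 without replicate 2 and 7 without replicate 3. In all, 1 (Grhl2) fell, against 11.9% of all genes, a call that was lost without any 1 of the replicates. In the cells 6 of 15 were 2-fold higher, against 9.68% of all genes. Krt8 and Krt18, the keratin pair of simple epithelia, were at 154 and 428 CPM in the day-3 cells and at 529 and 1076 in the day-4 cells. In bulk libraries Krt8 was at 231, 166 and 155 CPM at day 3 and at 1030, 835 and 825 at day 4, with a log2 fold change of 2.29 ± 0.22 (SE, edgeR adjusted p = 1.0e-06). Krt19 rose by 2.65 ± 0.13 and Dsp (desmoplakin of desmosomes) by 1.79 ± 0.16 (SE). Cdh1 (E-cadherin) was at 508 CPM in the day-4 cells with columns between 423 and 644, and Epcam at 341 with columns between 296 and 381, and neither passed the test in bulk RNA, where Cdh1 passed it without replicate 2 (0.36).

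Of the 20 mesenchymal genes tested, 12 rose in bulk RNA and 1 (Zeb1, a repressor of epithelial genes) fell by 0.91. Over all genes tested 16.0% rose and 11.9% fell. In the single cells 3 of 12 members were 2-fold higher and 1 was 2-fold lower, against 9.68% and 3.32% of all genes. The summed level of the list in the cells went from 742 to 1627 CPM, of which Lgals1 (galectin 1) alone made up 1013. Fn1 (fibronectin, a matrix protein) was at 211 CPM, with a log2 fold change of 0.45 ± 0.25 (SE) in bulk RNA that did not pass the test. It passed without replicate 2, at 0.70 (edgeR adjusted p = 0.049), and with no filter on low counts, at 0.45 (edgeR adjusted p = 0.0073). Vim (vimentin) was at 186 CPM and S100a6, a calcium-binding protein, at 162. Cdh2 (N-cadherin) was at 3.16 CPM, Snai1 and Snai2 at 4.40 and 1.32, Prrx1 at 0.276, and Col1a1 at 5.17. Of these Cdh2, Snai1 and Col1a1 rose in bulk RNA by 1.35, 1.46 and 2.84, also when any 1 of the replicates was left out, Snai2 did not pass the test, and Prrx1 was not tested. Postn and Tnc, which were also called higher in bulk RNA, were at 0.0592 CPM each in the cells, and the call of Tnc was lost without replicate 3, and Lum was at 0.158.

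**Figure D2:**
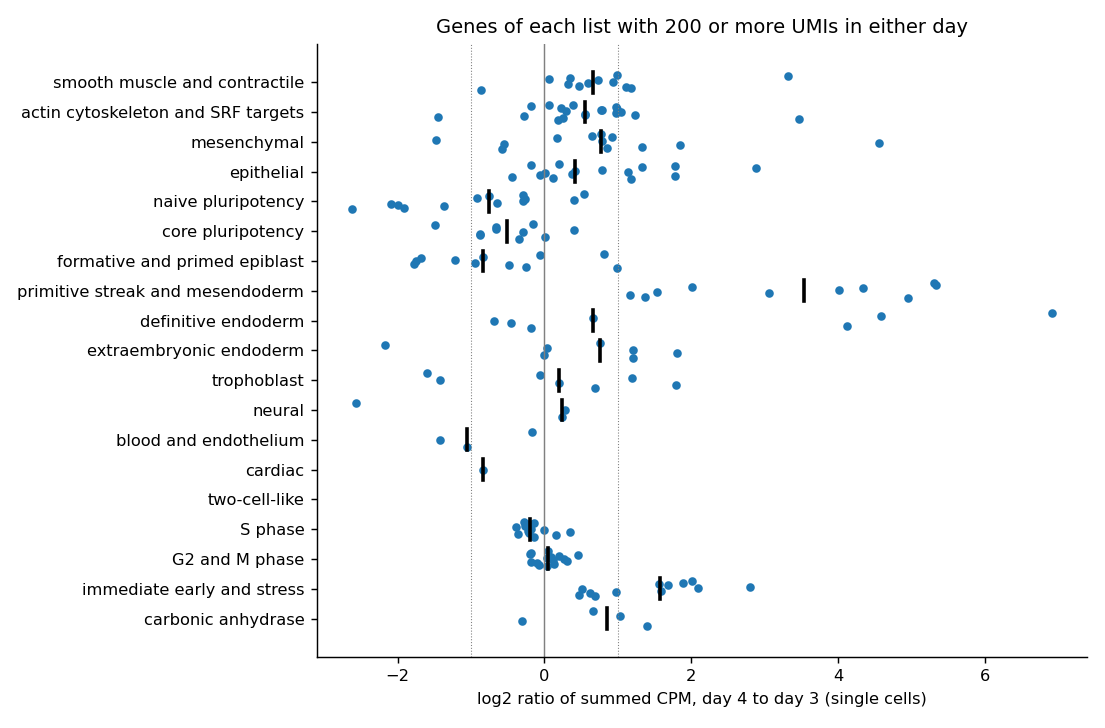
Log2 ratio of summed single-cell CPM, day 4 to day 3 (x axis), for the genes of each list with at least 200 UMIs in either day (y axis, 1 row per list); points are genes, black bars list medians and dotted lines 2-fold. The primitive streak list has a median of 3.54 and all of its 10 genes lie above 2-fold, while the naive and formative lists have medians of -0.75 and -0.84.

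Genes of the primitive streak, the embryonic structure through which epiblast cells become mesoderm and endoderm, changed most among the lists of lineages. All 10 members with enough UMIs were 2-fold higher in the day-4 cells, against 9.68% of all genes. In bulk RNA 12 of 13 members tested rose, against 16.0% of all genes, and the members' median log2 fold change was 2.63. T (Brachyury, a T-box factor of the streak) was at 3.39 CPM in the cells of day 3 and at 134 at day 4, with columns between 37.5 and 243. In bulk libraries T was at 3.37, 1.36 and 2.78 CPM at day 3 and at 181, 98.4 and 70.3 at day 4, a log2 fold change of 5.50 ± 0.34 (SE, edgeR adjusted p = 1.0e-08). Eomes, a T-box factor needed for mesendoderm, was at 24.0 and 96.3 CPM in the cells and rose by 2.30 ± 0.21 in bulk RNA. Mixl1, a homeobox factor of the streak, was at 0.772 and 31.1 CPM in the cells and rose by 4.41 ± 0.48 (SE). Fgf8, a growth factor of the streak, was at 5.88 and 49.0 CPM. Mesp1 and Tbx6, factors of nascent and presomitic mesoderm, were at 2.07 and 0.257 CPM at day 4. Lefty2, Sp5 and Cdx1 of the same list were at 331, 57.7 and 63.3 CPM in the cells of day 0, so that the list as a whole was not limited to day 4.

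Genes of the anterior streak and definitive endoderm were present in part. Foxa2, a forkhead factor of endoderm and axial mesoderm, had the highest ratio of day 4 to day 3 of all genes counted, from 0.662 to 80.05 CPM, and its columns at day 4 ranged from 12.1 to 215. Cer1, a secreted inhibitor of Nodal, Wnt and BMP, went from 0.690 to 16.5 CPM. Sox17, a defining factor of definitive endoderm, was at 1.32 CPM, with a UMI in 7 of 315 thinned cells, Cxcr4 at 0.118 and Shh at 0.178. Of 9 definitive endoderm genes 4 rose in bulk RNA (Sox17, Foxa2, Cer1 and Gata6), against 16.0% of all genes tested. The call of Sox17 was lost without replicate 1 or without replicate 2.

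These genes differed between the cultures of day 4. Foxa2 was at 28.9, 5.43 and 4.89 CPM in bulk replicates 1, 2 and 3 of day 4, and replicate 1 was the population that the cells came from. Mixl1 was at 35.02, 9.15 and 9.72 CPM, Cer1 at 9.91, 1.14 and 1.05, and Gsc (goosecoid, of the anterior streak) at 9.02, 1.84 and 2.22. Replicate 1 was the highest for each of these genes, and also for T, Eomes, Fgf8 and Lhx1. Tagln and Krt8 differed less, between 402 and 443 CPM and between 825 and 1030 CPM. Without replicate 1 the log2 fold changes were 5.16 for Foxa2, 3.47 for Mixl1 and 2.43 for Cer1, and 12 of 13 streak genes tested passed the test. Those of T, Eomes, Gsc and Lhx1 were also lower than with all replicates. Other streak genes went the other way, with Fgf8 at 4.15 against 3.72 and Sp5 at 4.93 against 4.23. Cdx1 was at 3.46 against 2.63 and Lefty2 at 1.36 against 1.09. The single cells thus stand for 1 culture in which Foxa2, Mixl1, Cer1 and Gsc were higher than in the other 2. With 1 culture per replicate number this difference was not tested.

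**Figure D3:**
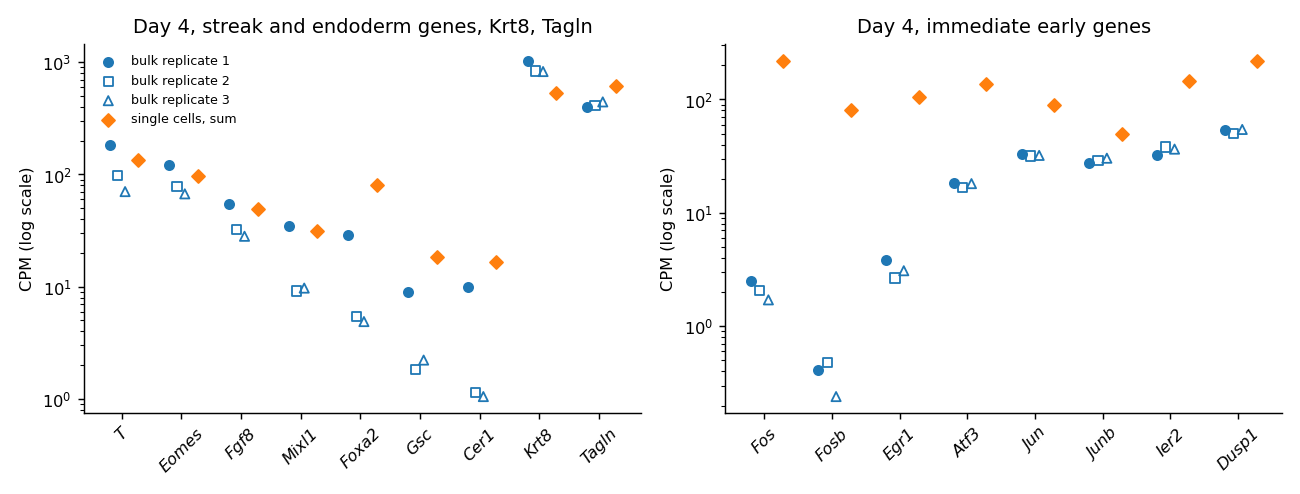
CPM at day 4 on a log scale (y axis) for single genes (x axis): blue, the 3 bulk libraries, with replicate 1, the population of the single cells, filled; orange diamonds, counts summed over the 315 cells. Replicate 1 is the highest bulk library for T, Eomes, Fgf8, Mixl1, Foxa2, Gsc and Cer1, and Fos, Fosb and Egr1 are far higher in the summed cells than in any bulk library.

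The 5 genes with the highest ratios of day 4 to day 3 were Foxa2 (121), Cav1 (caveolin 1, of membrane caveolae, 40.3), Mixl1 (40.2), T (39.6) and Stx11 (32.1), and all 5 rose in bulk RNA. Cav1 was at 0.165 and 6.67 CPM in the cells and Stx11 at 0.165 and 5.31. The 5 with the lowest ratios were Nhsl2, Mapk10, Mcf2, Grifin and Insm1, at 0.217, 0.533, 2.45, 1.13 and 0.651 CPM at day 4, and all 5 fell in bulk RNA, Mcf2 by 2.08 and Insm1 by 2.82.

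At a threshold of 5 thinned UMIs from at least 2 genes of the streak list, 69.8% of day-4 cells held streak transcripts (95% exact interval 64.4 to 74.9%), against 21.9% at day 3 and 77.8% at day 0. For the definitive endoderm list the shares were 50.2% at day 4 and 36.4% at day 3, but Epcam, which is not specific to endoderm, made up 341 of the 477 CPM of that list. For the naive list, 79.4% of day-4 cells and 90.1% of day-3 cells passed, and 171 day-4 cells passed for both the naive and the streak list, which is 68.4% of the naive and 77.7% of the streak cells.

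Pluripotency genes declined in part between days 3 and 4, and some rose. Of 14 naive genes 6 fell and 3 rose in bulk RNA relative to day 3, where 11.9% of all genes tested fell and 16.0% rose. All 14 fell relative to day 0, where 29.4% of all genes tested fell and 30.2% rose. Fgf4, a growth factor of naive cells, was at 237 CPM in the day-3 cells and at 63.3 at day 4 and fell by 2.17 ± 0.14 (SE) in bulk RNA. Without replicate 3 no naive gene was called higher. Dppa3 was at 104 and 25.9 CPM, and Zfp42 fell by 0.47 in bulk RNA. Esrrb and Klf5, at 34.3 and 63.1 CPM in the day-4 cells, did not pass the test, although Klf5 was called higher without replicate 1 (0.69), and Tfcp2l1, at 42.6 CPM, rose by 0.57. Nanog, a homeobox factor of pluripotency, was at 60.1 CPM in the day-3 cells and at 87.5 at day 4, and rose in bulk libraries from 163, 122 and 108 to 199, 225 and 244 CPM, a log2 fold change of 0.77 ± 0.17 (SE) whose call was lost without replicate 3. Of 12 formative and primed genes 8 fell and 4 did not pass the test, and with the replicate block 2 rose. Dnmt3b, a DNA methyltransferase of the epiblast, went from 1250 to 536 CPM in the cells and fell by 1.42 ± 0.13 (SE), Dnmt3a fell by 1.61 ± 0.10 and Dnmt3l, a cofactor of these enzymes, by 1.30 ± 0.22. The transcription factor Pou3f1 fell by 0.80, and Otx2 by 0.45, a call that was lost without replicate 2 or replicate 3. Fgf5, a marker of the primed epiblast, was at 173 and 303 CPM in the cells and did not pass the test in bulk RNA (log2 fold change 0.51, edgeR adjusted p = 0.053), but passed it with the replicate block, at 0.54, and without replicate 1, at 0.63. Of 10 core pluripotency genes 6 fell and 1 (Tdgf1) rose, where 3 fell without replicate 1, 4 fell without replicate 3 and 8 fell with the replicate block, and Tdgf1 was not called higher without any 1 of the replicates. Trim28, Dppa5a, L1td1 and Sall4 were at 912, 911.6, 719 and 251 CPM in the day-4 cells, and of these Dppa5a fell, a call that was lost without replicate 1 (-0.30), while Sall4 and Trim28 fell with the replicate block. Sox2 was at 123.1 and 44.0 CPM in the cells. Pou5f1 was at 34.1 CPM in the day-4 cells but at 552, 550 and 573 in the bulk libraries.

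In the lists of other lineages, single genes made up much of the summed level. The counts of these lists stand beside 16.0% of all genes tested that rose and 11.9% that fell in bulk RNA. In the cells 9.68% of all genes counted were 2-fold higher and 3.32% were 2-fold lower. In the neural list Nes (nestin, an intermediate filament not limited to neural cells) was at 82.8 of 125 CPM, Tubb3 at 29.5, Map2 at 3.63 and Neurog2 at 0, and Fabp7 was lower than Map2. Sox1 and Pax6, factors of neural progenitors, were at 0.316 and 1.32 CPM, and both fell, while the other 6 genes tested did not pass the test, and Tubb3 rose with the replicate block. The share of cells with 5 thinned UMIs from at least 2 genes was 18.1% for the neural list, 20.0% for the trophoblast list, 93.0% for the extraembryonic endoderm list and 2.22% for the list of blood and endothelium, against 24.5%, 22.2%, 89.4% and 4.97% at day 3. In the list of blood and endothelium the most abundant gene was Etv2 at 13.2 CPM, Kdr was at 0.316 and Tal1 at 0.118, and 4 of 9 genes tested rose and 2 fell in bulk RNA, where 2 rose without replicate 1 or replicate 3. In the cells 0 of 3 members counted were 2-fold higher and 2 were 2-fold lower, and the summed level went from 36.3 to 23.0 CPM. Kdr, a receptor of vascular growth factor, rose by 2.63 in bulk RNA and was also called when any 1 of the replicates was left out (2.55 to 2.76). Gata2 and Runx1, which rose, were at 3.83 and 1.24 CPM in the cells, and without replicate 3 both calls were lost. Runx1 was also not called without replicate 1, nor was Tal1 called lower without any 1 of the replicates. Tek, which fell, was at 2.41 CPM. No day-4 cell had 5 thinned UMIs from at least 2 cardiac genes (0 of 315, which allows a share of up to 0.952%, taking 3 counts as the limit of a count of 0), and the genes of 2-cell-like cells gave the same count. This limits the share of cells that reach the threshold at 40000 UMIs, not the share that express the genes, and for the cardiac list 0.635% of cells reached it without thinning and 0.317% with a threshold of 3 UMIs. The most abundant cardiac genes were Myl7, Myl4, Myh6 and Isl1 at 5.98, 1.22, 0.869 and 0.750 CPM, with Tnnt2 at 0.395 and Nkx2-5 at 0.0987. Among the 2-cell-like genes Zscan4c and Zscan4d were at 0 in the cells, Zscan4f and Gm8300 at 0.0197, Usp17lb at 0.0790 and Zfp352 at 0.158. In the extraembryonic endoderm list 6 of 13 genes tested rose and 2 fell, and Apoe, an apolipoprotein, alone was at 1105 CPM of a sum of 1489, and Gata4, Sox7 and Ttr were at 0.632, 0.612 and 0 CPM, of which Gata4 rose by 0.72 in bulk RNA, a call that was lost without any 1 of the replicates, while Col4a1 and Col4a2, chains of basement membrane collagen, rose by 1.61 and 2.02 in bulk RNA. Fst (follistatin) rose by 1.28 and Dab2 by 0.94, and Lamb1, at 108 CPM in the cells, did not pass the test. Prdm1 of the definitive endoderm list was at 21.6 CPM and did not pass the test. Of the trophoblast list 4 of 9 genes tested rose and 1 fell, Wnt7b and Tfap2c were at 12.8 and 15.6 CPM, and Krt7 was at 76.2 CPM and rose by 1.49 ± 0.17 (SE), while Cdx2, Elf5 and Tpbpa, which define that lineage, were at 0.158, 0.217 and 0.197 CPM. Hand1, another of its defining factors, was at 1.16 CPM in the cells and rose by 1.99 in bulk RNA, also when any 1 of the replicates was left out. The 14 S phase genes had a median log2 fold change of -0.13 in bulk RNA, and of 15 genes of G2 and M phase 1 rose (Mki67) and 1 fell (Bub1). The call of Mki67 was lost without replicate 1 or replicate 3, and that of Bub1 without any 1 of the replicates. Top2a and Ccnb1 fell with the replicate block. The replication genes Cdt1, Mcm6, Mcm7, Mcm2, Mcm4 and Mcm3 were between 278 and 349 CPM in the day-4 cells, and Top2a, Birc5, Cenpf, Ube2c and Ccnb1 of the G2 and M phase list between 209 and 808. Among the carbonic anhydrases, Car2, the cytosolic enzyme, rose by 1.07 ± 0.13 (SE) in bulk RNA and was at 353 CPM in the cells, Car13 and Car14 were at 32.1 and 29.6 CPM and did not pass the test, although Car14 was called lower without replicate 1 (-0.91, against -0.39 with all replicates), and Car9 and Car12 were at 0.138 and 1.54 CPM.

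Immediate early genes, which are induced within minutes by serum, stress or handling, were higher in the day-4 cells than in the day-3 cells, and their levels were compared with those of the bulk libraries. In the cells 7 of 12 members were 2-fold higher, against 9.68% of all genes. Fos was at 54.7 CPM in the day-3 cells and at 219 at day 4, and its columns lay between 18.9 and 97.4 at day 3 and between 146 and 364 at day 4. In the bulk libraries Fos was at 2.12, 1.58 and 1.26 CPM at day 3 and at 2.53, 2.06 and 1.71 at day 4 (log2 fold change 0.34 ± 0.40 SE, n = 3 per day, edgeR adjusted p = 0.56). Egr1 was at 105 CPM in the day-4 cells and at 3.83, 2.67 and 3.09 in the bulk libraries. Atf3, Jun, Ier2 and Dusp1 were at 137.5, 89.8, 147 and 220 CPM in the day-4 cells. Of the 12 members 5 rose in bulk RNA, against 16.0% of all genes tested. Among the 5, Junb rose by 1.22, Ier3 by 1.33 and Dusp1 by 0.42, and 3 members rose without replicate 3. The call of Dusp1 was lost without replicate 1 or replicate 3. Single cells had been detached with trypsin before capture and bulk cultures were lysed in the plate; the part of this step in the difference was not tested.

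Day-4 cells varied more in Acta2 than in Tagln or Car4. After thinning, a cell held a median of 17 Tagln UMIs (0 to 118), 15 Car4 UMIs (0 to 97) and 0 Acta2 UMIs (0 to 109). Tagln had a UMI in 92.1% of cells (95% exact interval 88.5 to 94.8%), Car4 in 91.4% (87.8 to 94.3%) and Acta2 in 30.2% (25.1 to 35.6%). Thinned day-3 cells had a Tagln UMI in 61.6%, a Car4 UMI in 83.1% and an Acta2 UMI in 6.29%, so that Tagln and Car4 were not particular to day 4. In day-0 cells at the same depth, Tagln had a UMI in 2 of 325 cells and Acta2 and Car4 in 0 of 325 (which allows a share of up to 0.923% of cells with a UMI at this depth by the same limit of 3 counts, with an exact upper limit of 1.13%), with median depths before thinning of 137370 UMIs at day 0 and 164640 at day 4. The excess coefficient of variation (CV), which is the spread between cells beyond counting noise relative to the mean, was 0.96 for Tagln, 0.86 for Car4 and 2.90 for Acta2, against a median of 1.47 over 8530 genes with a mean of at least 0.5 thinned UMIs. Over the 1872 genes with a mean of at least 5, the class of Tagln and Car4, the median was 0.76, and 82.1% of these genes were below Tagln and 67.5% below Car4. The 10 genes with the highest values included Gal (galanin, a neuropeptide), at 8.61 with a UMI in 25 cells and up to 148 in a cell, and Cer1, at 7.80 with a UMI in 23 cells. Fthl17a, Slc25a53, Sh3rf2, Tpcn1, Slc9a8, Zfp951, Cpsf4l and Smtnl1 followed between 6.27 and 5.55, each with a UMI in 19 to 52 cells. The genes of the contractile list had a median pairwise Spearman correlation of 0.28.

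Tagln had correlations above 0.5 with several genes from cell to cell, ranked among genes with a mean of at least 1 thinned UMI. Its highest Spearman correlations over the 315 thinned cells were with Myl12a (a myosin light chain, 0.67), Tmsb4x (thymosin beta 4, which binds actin monomers, 0.66), Tpm1 (0.65), Bex1 (0.62) and Dstn (destrin, which severs actin filaments, 0.59). With Krt18 it was 0.43, with Acta2 0.38 and with Car4 0.14, and Acta2 and Car4 had -0.02. The highest correlation of Acta2 among genes with that mean was with Krt18, at 0.43, and Krt8 and Krt18 had 0.78 with each other. Tagln had 0.37 with Cdh1 and 0.20 with Vim, and Cdh1 and Vim had -0.04. T had 0.46 with Fgf5, 0.43 with Fgf8 and 0.31 with Foxa2, while Eomes had -0.33 with Tagln and -0.40 with Krt18. These correlations are descriptions of cells of 1 culture that share libraries and depth.

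Ward clustering on the 500 most variable autosomal genes divided the cells into 5 clusters. Values of single genes describe the clusters and were not tested. Since the clusters were formed on variable autosomal genes, counts of list genes at 2-fold are no separate support for a cluster. The share of all genes at 2-fold in each cluster is not given. Cluster 1 held 126 cells (40.0%) and was led by Foxa2, Cer1 and T, with 8 of 14 streak genes at 2-fold or more over the other cells, and is called primitive streak-like. It held 79.2% of all thinned T UMIs, 89.9% of those of Foxa2 and 95.1% of those of Cer1. After thinning, T had a UMI in 85 of its 126 cells, Foxa2 in 55 and Cer1 in 15. Fgf5 was at 509 CPM there, against 196 in cluster 2 and 44.9 in cluster 3. Cluster 2 held 94 cells and was led by Anxa8, Phlda1 and Slc4a11, with Tagln at 973 CPM, Cnn1 at 115 and Vim at 267. Cluster 3 held 48 cells and was led by Krt7, Nrk and H19, of which Nrk is X-linked and was not used in the clustering, with Krt18 at 3249 CPM, Krt8 at 1675, Lgals1 at 2548 and Acta2 at 498. Cluster 4 held 30 cells and was led by Ooep, Smtnl1 and Mylpf, with 9 of 14 naive genes at 2-fold or more, among them Klf2 at 212 CPM and Dppa3 at 130. It was given no name. Its median was 34.5 thinned UMIs of the naive list, against 202 in day-0 cells and 33 in day-2 cells. For the formative list its median was 65.5, against 13 in day-0 cells and 142 in day-2 cells. Nanog was at 123.2 CPM in cluster 4 and at 115 in cluster 1. Of the core list Sox2, Utf1, Dppa5a and Dppa4, and of the formative list Dnmt3a, Lef1 and Dnmt3l, were also at 2-fold or more. Cluster 5 held 17 cells with a median of 61770 UMIs and 5.87% mitochondrial UMIs, against 2.53% over all day-4 cells, and was left unnamed. Cells of clusters 1, 2, 3 and 5 came from all 10 columns, and those of cluster 4 from 9. With 1000 variable genes in place of 500, 75 of the 126 cells of cluster 1, 49 of 94 of cluster 2, 45 of 48 of cluster 3 and 14 of 30 of cluster 4 were found together again.

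The marker genes were spread unevenly over these clusters. Acta2 UMIs came to 58.7% from cluster 3 and to 33.3% from cluster 2, and to 6.97% from the streak-like cluster, where its level was 26.3 CPM. Within cluster 3, Acta2 had a UMI in 25 of 48 thinned cells. Tagln was at 886 CPM in cluster 3, at 388 in cluster 1 and at 79.4 in cluster 4, while Car4 was between 464 and 544 CPM in clusters 1 to 3 and at 222 in cluster 4. Vim was at 71.8 CPM in cluster 3, below cluster 1 at 202, although Lgals1 and S100a6 were higher in cluster 3. In cluster 3, Gata3, Krt7, Ascl2 and Plet1 of the trophoblast list were 2-fold or more over the other cells, but Cdx2 and Elf5 had no UMI in its thinned cells. The genes of G2 and M phase had a median of 57 thinned UMIs in cluster 3 against 169 in the other cells, and those of S phase 57.5 against 132.

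**Figure D4:**
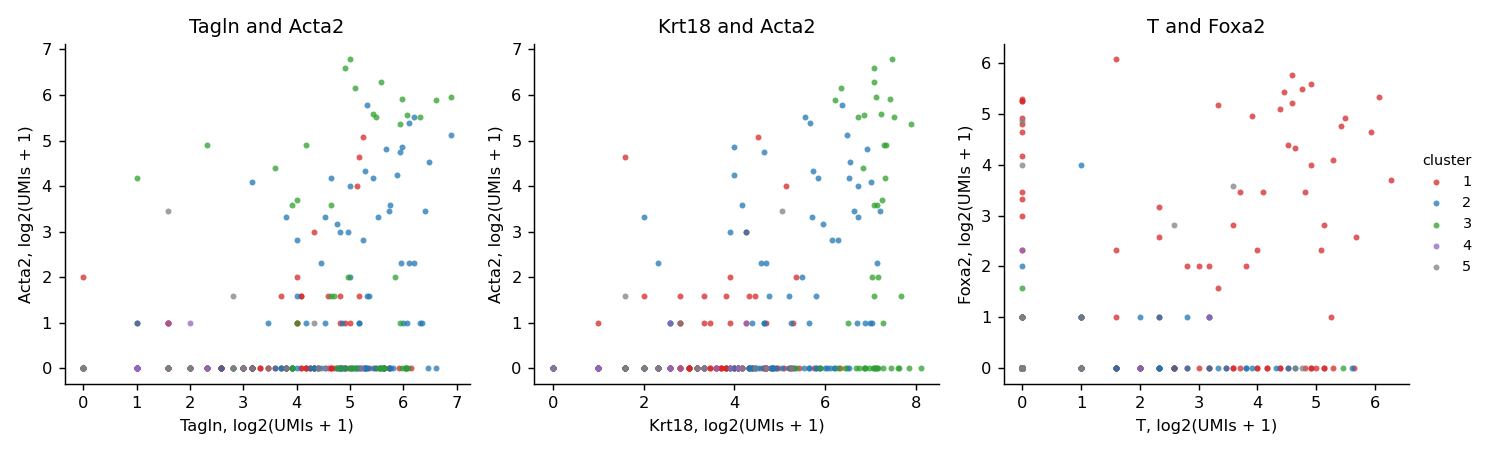
Thinned UMIs of 2 genes per panel, as log2(UMIs + 1) on both axes, for each of the 315 cells, coloured by cluster 1 to 5. Cells with the most Acta2 belong mainly to clusters 2 and 3 and lie at high Tagln and Krt18, and cells with both T and Foxa2 belong mainly to cluster 1.

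X-linked genes were left out of the clustering, so that the state of the X chromosomes could be set beside it as a further readout. X inactivation is started by Xist, a long non-coding RNA that coats and silences the chromosome it comes from, and a cell that has silenced an X reads X-linked genes mainly from the other allele. Per cell, a median of 542 X-linked UMIs could be assigned to B6 or Cast without Xist. Both alleles held at least 20% of them in 210 of 315 cells (66.7%, 95% exact interval 61.2 to 71.9%), the B6 share was under 20% in 40 cells and over 80% in 65. In the streak-like cluster 58 of 126 cells used both alleles (46.0%, 37.1 to 55.1%), in cluster 2 it was 74 of 94 (78.7%, 69.1 to 86.5%), in cluster 3 45 of 48 (93.8%, 82.8 to 98.7%) and in cluster 4 25 of 30 (83.3%, 65.3 to 94.4%). With limits of 10 and 90% in place of 20 and 80%, chosen after seeing the data, the shares were 81.0% in cluster 1, 92.6% in cluster 2 and 100% in cluster 3. At 20 and 80% the share was higher in cluster 3 than in cluster 1 in 10 of 10 columns, and higher in cluster 2 than in cluster 1 in 9 of 10. The autosomal B6 share was between 51.3% and 51.5% in each of the 5 clusters. Among the cells that the study kept, from which sites with several cells had been removed, the shares were 47.0% in cluster 1, 79.0% in cluster 2 and 94.9% in cluster 3.

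Xist and the total of X-linked UMIs also differed between the clusters. At least 5 thinned Xist UMIs were found in 72.2% of cells of cluster 1 (63.5 to 79.8%), in 40.4% of cluster 2 (30.4 to 51.0%) and in 31.3% of cluster 3 (18.7 to 46.3%). Summed Xist CPM was lower in cluster 3 than in cluster 1 in 9 of 10 columns, and lower in cluster 2 than in cluster 1 in 8 of 10. The median of X-linked UMIs without Xist, out of 40000 thinned UMIs, was 1567 per cell in cluster 1, 1877.5 in cluster 2 and 2450.5 in cluster 3. Cluster 4 had 40.0% of cells with Xist (22.7 to 59.4%) and a median of 1984 X-linked UMIs. Cluster 5, which had the lowest median of UMIs, had 52.9% (27.8 to 77.0%), the highest summed Xist level at 656 CPM, the lowest X-linked median at 1259, and both alleles in 8 of 17 cells (47.1%). The X-linked median was higher in cluster 3 than in cluster 1 in 10 of 10 columns, and in cluster 2 than in cluster 1 in 10 of 10. Of the 68 cells of cluster 1 that were outside the limits of both alleles, 60 had at least 5 thinned Xist UMIs. So did 31 of the 58 cells of cluster 1 that used both alleles, 22 of 74 in cluster 2 and 13 of 45 in cluster 3. Cluster 3 also had the highest median of UMIs, at 184600, and among cells with at least 80000 UMIs the shares with both alleles were 44.7%, 77.6% and 93.8% in clusters 1, 2 and 3. These are cells of 1 culture, and no test was made between clusters.

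**Figure D5:**
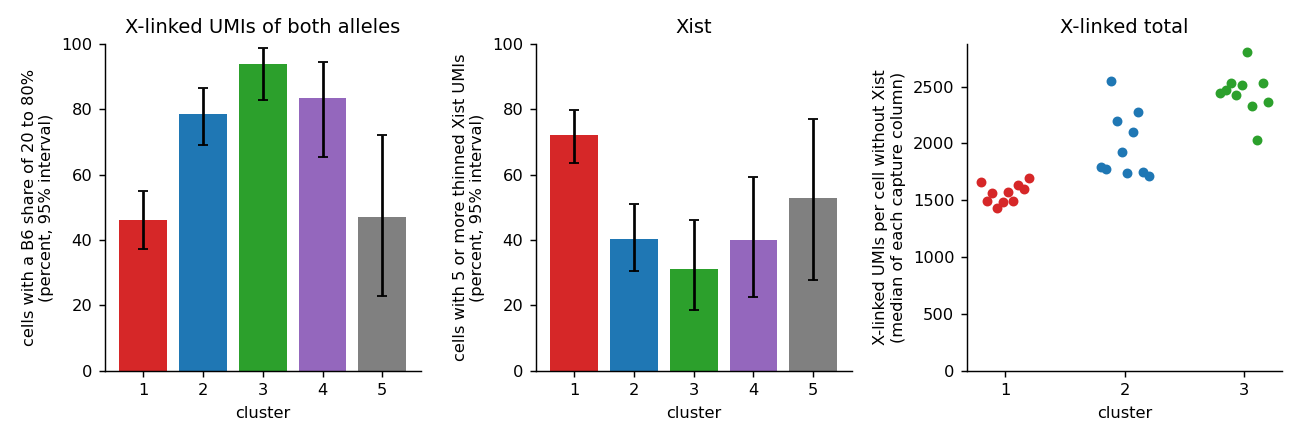
X-linked readouts by cluster: left, percent of cells in which both alleles held at least 20% of X-linked UMIs, and middle, percent of cells with at least 5 thinned Xist UMIs (bars with 95% exact intervals); right, the median of X-linked UMIs per thinned cell without Xist in each capture column for clusters 1 to 3 (points). The share with both alleles is 46.0% in cluster 1 and 93.8% in cluster 3, and the share with Xist is 72.2% and 31.3%.

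Allele-specific UMIs of the marker genes themselves were counted over all day-4 cells. Tagln had 47.1% of its 612 assigned UMIs on the B6 allele (95% exact interval 43.045 to 51.1%) and Car4 49.4% of 6374 (48.1 to 50.6%). Acta2 had 28.5% of 512 on B6 (24.6 to 32.6%), Foxa2 40.8% of 732 (37.3 to 44.5%), T 61.8% of 1342 (59.2 to 64.5%) and Krt8 64.7% of 907 (61.5 to 67.8%). UMIs of a cell are not independent, since a few cells carry most Acta2 UMIs, so that these intervals cover counting error only.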

How the data were processed

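Single cells had been captured on C1-HT chips and bulk total RNA sequenced after rRNA depletion. Per the study's methods the authors aligned reads with STAR (2.5.2b, per the submitters' processing notes) to GRCm38 (mm10) with strain SNPs masked, kept unique alignments, and deposited UMI counts per gene and cell and, with featureCounts, bulk read counts per gene. Allele-specific UMI counts were deposited in the same way. Depth was 40174 to 300322 UMIs per day-4 cell, and intervals cover counting error only.

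CPM was computed from UMIs summed over cells with at least 40000 non-ERCC UMIs. Cells were thinned to 40000 UMIs for shares, correlations and excess CV, and Ward clusters used 20 principal components of log2(CPM + 10). Bulk counts of 15 libraries were fitted with edgeR 4.0.16 (quasi-likelihood test, TMM, two-sided, Benjamini-Hochberg adjusted p of 0.05, R 4.3.3), after a test on simulated data. The bulk replicates had been differentiated on different days, so their numbers pair samples: same-numbered deviations had a median r of 0.126 over 30 pairs, different numbers -0.068 over 60. The main fit did not use this pairing, so that a gene that did not pass the test failed in the unpaired fit. The fit with the replicate block used the pairing. Python 3.11.15 was used otherwise. Alternatives were DESeq2 1.42.0, other filters, thresholds and depths, each replicate left out and a replicate block.

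Members and gene lists were chosen with earlier results of these data known. Genes named were the 3 markers, the first 3 and the 4 most abundant genes of each list, the 10 with the highest excess CV, the 5 with the highest correlation with Tagln and the 5 highest and lowest day-4 to day-3 ratios. Other genes were named after their values were seen.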

Additional observations from a re-analysis of the deposited data

Results flagged for a closer look

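Of 39 quantities compared over the 10 capture columns of day 4, 5 had 1 column apart from the other 9, and chance flags about 1 in 20 such groups. The summed level of the S phase list was lowest in column 2, at 2139 CPM, where the next column was at 2854. The share of cells positive for the formative and primed list was lowest in column 9, at 87.1%, with the next at 96.7%. The share positive for the blood and endothelium list was highest in column 10, at 8.571%, with the next at 3.23%. The share positive for the mesenchymal list was lowest in column 8, at 93.33%, with the next at 96.6%. The summed Xist level was highest in column 5, at 679.2 CPM, with the next at 440 and a median of 302.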

How the results depend on the processing

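Leaving out 1 replicate gave 1640 to 2091 genes higher and 996 to 1500 lower at day 4 than at day 3, in place of 3014 and 2237. With the replicate block there were 3330 and 2706, of which 3007 and 2221 were shared, and among the genes named with a bulk test, calls were gained for 11 (Car4, Actb, Fgf5, Ccnb1, Ctgf, Cyr61, Sall4, Slc9a8, Top2a, Trim28 and Tubb3) and lost for none. Without replicate 1, 2 or 3, 14, 9 and 24 of their calls were lost and 3, 5 and 0 gained. The small change of Egr1 was -0.1221 to 0.4378 when 1 replicate was left out, reversing without replicate 1 and without replicate 3. Direction also changed when 1 replicate was left out for Mylk (-0.722 to 0.532), Myh11 (-0.1306 to 0.5723), Des (-0.1475 to 0.1783), Ankrd1 (-0.4028 to 0.3449), Snai2 (-1.92 to 0.3131), Esrrb (-0.274 to 0.1183), Klf2 (-0.132 to 0.1545), Gata3 (-0.5669 to 0.2763), Map2 (-0.1043 to 0.2142), Fabp7 (-0.928 to 0.2912), Myl4 (-0.1624 to 0.2527), Birc5 (-0.005195 to 0.09157), Fosb (-0.1296 to 0.795), Car12 (-0.856 to 0.1144) and Car9 (-0.2915 to 0.9678), and none of these 16 genes passed the test under any alternative. In the cells, a minimum of 50 UMIs gave 1882 genes 2-fold higher and 982 lower, and a minimum of 500 gave 662 and 213. An alternative took cells with at least 20000 UMIs and thinned them to 20000, so that the set of cells and the depth both changed. The shares of positive cells were then 57.39% (naive), 92.75% (formative), 55.94% (streak), 38.26% (definitive endoderm), 89.28% (extraembryonic endoderm), 12.46% (trophoblast), 11.88% (neural), 0.8696% (blood) and 90.72% (mesenchymal). Without thinning they were, in the same order, 94.6%, 99.68%, 84.44%, 67.3%, 97.14%, 34.29%, 34.92%, 4.762% and 99.37%, the excess CV of Tagln was 1.121 and the median pairwise correlation of contractile genes 0.3563. A threshold of 3 UMIs gave 83.81% for the naive list, and one of 10 gave 63.17% (naive), 93.33% (formative), 56.83% (streak), 43.81% (definitive endoderm), 13.97% (trophoblast), 12.06% (neural), 0% (blood) and 93.33% (mesenchymal). With 4 clusters, clusters 4 and 5 merged to 47 cells. With 6 clusters, cluster 2 was split and its larger part held 63 of 94 cells. With 1000 variable genes 1 cluster of 36 cells was nearest to both cluster 4 (14 shared cells) and cluster 5 (16), and among cells retained by the study, an alternative added after seeing the data, those nearest to clusters 1, 2 and 5 held 80, 56 and 80, where clusters 1 and 5 were nearest to the same cluster (66 and 7 shared cells). Shares move with depth and threshold by construction. At 20000 UMIs the part of the added cells in the move was not separated, and for the other changes the cause was not tested.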
